A study of Mus musculus with 316 samples.

Results

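Arterial endothelial cells are the subject of this account: 71 of the 280 hippocampal endothelial cells with 1000 or more detected genes, in a table of 316 sequenced cells. A cell was counted as arterial when at least 3 of the 6 genes Gkn3, Bmx, Sema3g, Cytl1, Fbln5 and Mgp reached 10 CPM (reads scaled to a total of 1000000 in that cell) and when these outnumbered the genes among Nr2f2, Lrg1, Il1r1, Vwf, Ch25h and Icam1, all known from veins, that reached the same level. The remaining 209 cells were split by the mirrored rule into 50 venous cells and 159 cells that met neither definition. The members were thus chosen by the measured levels of those 12 genes, and these levels are given as a description and are not tested.

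The mice were C57BL/6 males, 3 months old in the young and 19 months old in the aged group, with no treatment or engineered allele named in the labels. Each age had 2 pools of 4 mice, and endothelial cells of every pool were sorted by fluorescence into a gate called pos and a gate called neg. The marker behind the gates is not stated for the samples, while the title of the series names VCAM1, a surface protein of activated endothelium that binds leukocytes. Cells of 1 pool share their mice, their dissociation and their sort, so the pool was the replicate throughout (n = 4), and values in lists follow the order young pool 1, young pool 2, aged pool 1 and aged pool 2. Pool number 1 went with a single sequencing barcode prefix in both ages, and pool number 2 with the other.

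Arteries carry blood under pressure and pulsation, and their endothelium rests on an elastic lamina that it helps to build. Arterial identity is set in development by VEGF and Notch signalling: Notch ligands on one endothelial cell activate receptors on the next and maintain genes such as the Hey family, while the venous program depends on Nr2f2. In the brain, exchange of nutrients across the blood-brain barrier is a task mainly of capillaries and venules, which hold high levels of solute carriers, and arterial endothelium is known for gap junctions, control of vascular tone and matrix genes.

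Mgp, an inhibitor of calcification, reached 10 CPM in 70 of the 71 cells, the non-receptor kinase gene Bmx in 58, Gkn3 in 57, the elastic fibre gene Fbln5 in 49, the semaphorin gene Sema3g in 40 and Cytl1 in 39. Vwf, the gene of von Willebrand factor, was the exception among the venous genes and was found in 55 of the 71 (77.5%), and it was the only venous gene in 42. The other 5 venous genes were found in 1 to 7 arterial cells each. By the number of arterial genes, 16 cells had 3, 20 had 4, 25 had 5 and 10 had all 6. Just outside the rule stood 9 cells with 2 arterial genes and 1 cell with 3 arterial and 3 venous genes, and the other 199 cells had 0 or 1.

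Arterial cells had a median of 508634 reads (73772 to 1199344) and 1984 detected genes (1044 to 4757), against 555574 reads and 1769 genes in all other cells. Within the pos gate, where most arterial cells lay, detected genes per cell averaged 2057 ± 175 in arterial and 1991 ± 172 in other cells (SD over 4 pools, two-sided exact permutation p = 0.657). Summed over the cells of a pool, arterial cells gave 3940046 to 15852014 reads and other cells 14035954 to 45304997. No barcode pair was shared between the 2 prefixes and no 2 cells held identical values. Endothelial genes were held by both classes: Cldn5, the main tight junction claudin of brain endothelium, was summed to 6352, 5392, 5858 and 6214 CPM in arterial and 6315, 5403, 5846 and 5993 CPM in other cells of the 4 pools, and Pecam1 to 1615, 1678, 1530.5 and 1653 CPM against 914, 1173, 1657 and 1622 CPM. Of 18 listed endothelial genes, 10 had a higher mean in arterial cells, beside 4621 of all 10436 genes (median log2 ratio 0.08, beside -0.13). By the test given below 0 were called higher and 2 lower than in all other cells (Emcn and Slco1a4), beside 0.268% and 0.125% of all genes. Against venous cells 3 were called higher (Eng, Ly6c1 and Sox18) and 1 lower (Slco1a4), beside 0.75% and 0.365%.

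Arterial cells lay mostly in the pos gate. They were 12 of 42, 25 of 45, 6 of 21 and 18 of 37 pos cells in the 4 pools, against 1 of 38, 6 of 40, 1 of 22 and 2 of 35 neg cells. The share was 40.3% ± 13.9 in the pos and 6.97% ± 5.50 in the neg gate (SD, n = 4), a difference of 33.4 percentage points, higher in 4 of 4 pools. Exchanging the values without regard to pool gave a two-sided exact permutation p of 0.0286. Exchanging the gates only within pools, 4 pairs cannot give less than the p of 0.125 that was found. With barcode prefix 1 the pos share was 28.6% in both ages, against a mean of 3.59% in the neg gate, and with prefix 2 the means were 52.1% and 10.4%. The 10 arterial cells of the neg gate all had 3 or 4 arterial genes, and Mgp had a median of 127 CPM in them against 3640 CPM in the 61 pos members. Where a gene reached 10 CPM in these 10 cells, the median was 633 CPM for Bmx (7 cells), 395 CPM for Gkn3 (6), 169 CPM for Mgp (9) and 134 CPM for Sema3g (5), and nearer the threshold for Fbln5 at 31.3 CPM (5) and Cytl1 at 28.3 CPM (2). At 50 CPM in place of 10, 5 neg and 59 pos cells met the rule.

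**Figure D1:**
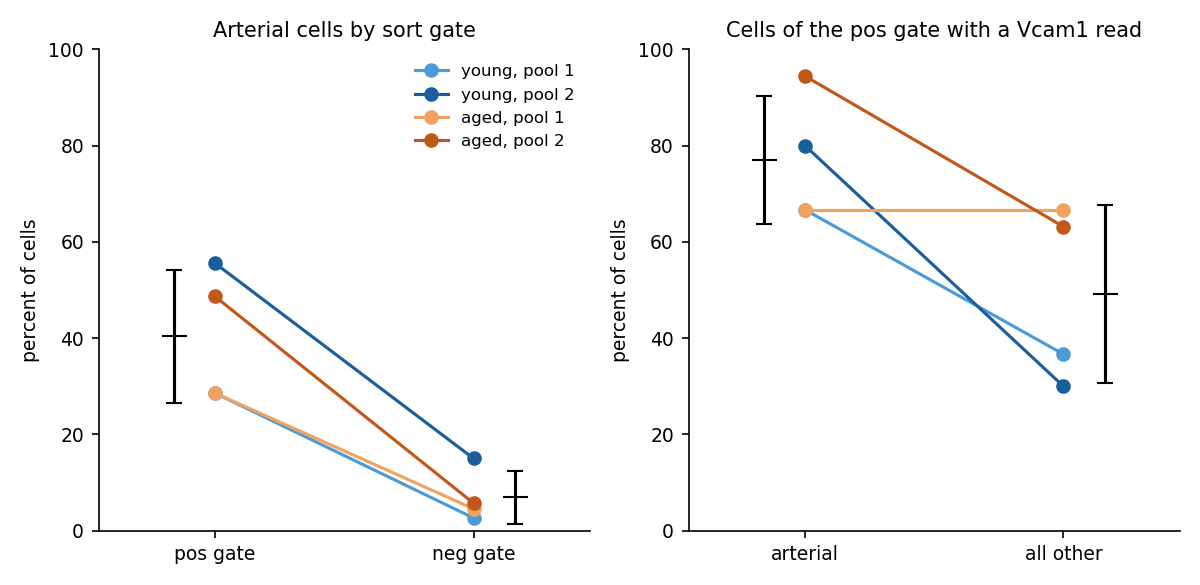
Left, the percentage of cells with 1000 or more genes that were arterial, in each sort gate; right, the percentage of pos cells with at least 1 Vcam1 read among arterial and all other cells. Points joined by a line are 1 pool and black bars are the mean ± SD of 4 pools; all 4 lines fall from pos to neg on the left (40.3% to 6.97%), while aged pool 1 is level at 66.7% on the right.

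Arterial cells were first compared with all other cells, on the summed counts of every pool and class. Of 10436 genes tested, 28 (0.268%) were higher and 13 (0.125%) lower in arterial cells, by edgeR's quasi-likelihood test with Benjamini-Hochberg adjustment over all genes at 0.05. For each of these 41 genes the 4 arterial values lay wholly above or wholly below the 4 values of the other cells. The test that chose the genes used the same values, and the share over all genes tested was not counted. The separation therefore describes the calls and adds no support to them. Of the 28, 21 were also called higher than in venous cells and 14 also higher than in cells that were neither, and of the 13 lower genes 10 and 12. Arterial cells were 61 of 71 from the pos gate and other cells 84 of 209, and fitted on the pos gate alone all 41 genes kept their direction and 21 their call. The calls lost there were those of Gja4, Timp2, Cmip, Ehd4, Mgst1, Ptgis, Sat1, Smpdl3a, Stmn2, Tspo, Vcam1 and Vim among the higher genes and of Apod, Car2, Ccng2, Emcn, Fcgrt, Slco1a4, Kank3 and Bsg among the lower ones (adjusted p 0.0591 to 0.422). With at least 4 rule genes required, so that the 16 cells with 3 were counted among the others, 16 of the 41 kept their call: Alpl, Ccnd2, Cmip, Ehd4, Gja4, Igfbp4, Kcnn4, Ltbp4, Stmn2, Syt15, Tm4sf1 and Vcam1 as higher and Car14, Itm2a, Pglyrp1 and Pltp as lower. With the pool as a block, 5 of the 41 kept the call, namely Alpl, Gja4, Igfbp4 and Tm4sf1 as higher and Itm2a as lower (adjusted p 0.0253 to 0.0405), and 36 did not (0.0506 to 0.191). Alpl, Igfbp4, Tm4sf1 and Itm2a kept it in all 3 of these fits. None of the 41 kept it when any 1 pool was left out, in fits of 6 sums.

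Among the Notch genes, the ligand Jag1 was called. It was summed to 1304, 806, 1117 and 488 CPM in arterial cells of the 4 pools, to 210.3, 149.9, 92 and 55.5 CPM in venous cells and to 208, 146, 144 and 126 CPM in cells that were neither, with reads in 69 of 71 arterial cells. All 4 arterial values lay above the 8 others. Jag1 was 6.3-fold higher than in all other cells (log2 fold change 2.67 ± 0.34 (SE), edgeR adjusted p = 0.0272), and it was called against venous cells and against neither as well (log2 fold change 3.00 ± 0.38 (SE), edgeR adjusted p = 0.00515; log2 fold change 2.58 ± 0.37 (SE), edgeR adjusted p = 0.0183). Dll4, a Notch ligand of growing arteries and tip cells, was summed to 55.7, 276, 149.6 and 371 CPM in arterial and 62.5, 109, 12.2 and 14.2 CPM in all other cells. These ranges overlapped through young pool 1 and Dll4 was not called there (adjusted p = 0.196), but it was called against venous cells, at 22.2, 60.1, 0 and 0 CPM (adjusted p = 0.0128). Jag2 had 148, 213, 144 and 214 CPM against 68.6, 90.4, 41.4 and 26.1 CPM and was not called in any of the 3 comparisons.

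The receptors were not called: Notch1 had 254, 249.6, 167 and 377 CPM in arterial and 191, 158, 184 and 122 CPM in other cells, and Notch4 had 11.3, 249.8, 68.6 and 276 CPM against 49.2, 64.8, 78.3 and 42.7 CPM. Hey2, a transcriptional repressor downstream of Notch, had reads in 11 arterial cells and in 0 of the 209 others, yet was at 0 in all 7 arterial cells of aged pool 1. Its summed level was 91.1, 97.3, 0 and 50.5 CPM and it missed the threshold (adjusted p = 0.222). Hey1, of the same family, had 350.0, 587, 125 and 418 CPM against 114, 91.1, 49.6 and 97.6 CPM in other cells and missed it as well (adjusted p = 0.190). In all, 1 of 4 ligands, 0 of 3 receptors and 0 of 13 modulators and targets were called against all other cells, with median log2 ratios of 1.89, 0.67 and 0.55 beside -0.13 over all genes tested. Of all genes tested, 0.268% were called higher. None of the 19 transcription factors of endothelial segment identity was called against all other cells. Sox18, a SoxF factor, was called against venous cells, at 1426, 1208, 1209.9 and 1090.5 CPM in arterial and 721, 571, 426 and 288 CPM in venous cells (log2 fold change 1.37 ± 0.23 (SE), edgeR adjusted p = 0.0209).

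Gja4, a connexin of arterial gap junctions, had 636, 515, 62.1 and 512 CPM in arterial cells, 0, 0.514, 0 and 0 CPM in venous cells and 40.1, 26.5, 0 and 0 CPM in cells that were neither. Aged pool 1, with 7 arterial cells, was the lowest, and it still lay above every value of the other classes. Reads were found in 34 of 71 arterial and 5 of 209 other cells. The ratio of mean CPM to all other cells was 36.5 (edgeR adjusted p = 0.0186). Gja4 was not called in the pos gate alone, against all other cells, venous cells or neither (edgeR adjusted p = 0.117, 0.0750 and 0.267), and with the pool as a block it was not called against neither (0.0889). Gja5, a second arterial connexin, had 156, 119, 85.4 and 38.4 CPM against 5.45, 0.0354, 0 and 0 CPM in other cells, with reads in 12 and 3 cells, and did not pass (adjusted p = 0.178). At 10 CPM, Gja4 was present in 32 members and Gja5 in 11, and both in 8. Gja1, a connexin shared with astrocytes, was uneven over pools, at 0, 106, 292 and 98.7 CPM against 169, 248, 52.3 and 83.1 CPM, and was not called.

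Igfbp4, which binds insulin-like growth factors, had 627, 375, 549.6 and 1373 CPM in arterial cells against 10.2, 0.815, 0.0735 and 0.0691 CPM in all others (edgeR adjusted p = 0.0143, ratio of mean CPM 261). It was found in 35 arterial and 10 other cells, and 1 cell held 90.5% of the reads of the latter. Tm4sf1, a tetraspanin-like membrane protein of endothelial cells, and Alpl, tissue-nonspecific alkaline phosphatase, are singled out because they kept their call with the pool as a block, a choice made after their values were seen. Tm4sf1 was present in all 71 members, at 5135, 4471, 4241 and 4137 CPM against 750.2, 738, 655 and 1324 CPM in venous and 1518, 1106, 1623 and 902 CPM in cells that were neither. Its log2 fold change against all other cells was 1.96 ± 0.16 (SE, edgeR adjusted p = 0.00532). Its arterial values spanned a narrow range and none overlapped with the others. Alpl had 1549.8, 1082, 1444 and 1829 CPM in arterial and 279.8, 243, 305 and 476 CPM in other cells (log2 fold change 2.20 ± 0.23 (SE), edgeR adjusted p = 0.0156). The other classes differed from each other in this gene: venous cells had 0, 0.257, 11.6 and 0.299 CPM and cells that were neither 396, 343, 431 and 626 CPM, and the last comparison was not called (adjusted p = 0.511).

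The 250 bases before the RefSeq start sites (GRCm38.p6) of Gja4, Igfbp4 and Tm4sf1 are shown because these genes were called against venous cells, against neither and, in the comparison with all other cells, with the pool as a block. They were searched on both strands for TGGGAA (the core of sites of the Notch factor RBPJ), ATTGT (SOX factors) and CCACCC (KLF factors), and a match is in capitals.
Gja4, chr4:127314040-127314289, minus strand: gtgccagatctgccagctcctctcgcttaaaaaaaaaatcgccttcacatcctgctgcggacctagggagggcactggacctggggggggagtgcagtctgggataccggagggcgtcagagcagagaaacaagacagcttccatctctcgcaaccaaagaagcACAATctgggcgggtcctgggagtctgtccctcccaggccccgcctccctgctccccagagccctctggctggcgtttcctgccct
Igfbp4, chr11:99040994-99041243, plus strand: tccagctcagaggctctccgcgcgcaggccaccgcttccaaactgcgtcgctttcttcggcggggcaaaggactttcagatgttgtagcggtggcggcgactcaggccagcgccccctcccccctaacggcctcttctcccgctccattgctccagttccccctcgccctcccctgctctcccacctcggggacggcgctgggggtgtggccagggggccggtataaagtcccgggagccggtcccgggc
Tm4sf1, chr3:57301989-57302238, minus strand: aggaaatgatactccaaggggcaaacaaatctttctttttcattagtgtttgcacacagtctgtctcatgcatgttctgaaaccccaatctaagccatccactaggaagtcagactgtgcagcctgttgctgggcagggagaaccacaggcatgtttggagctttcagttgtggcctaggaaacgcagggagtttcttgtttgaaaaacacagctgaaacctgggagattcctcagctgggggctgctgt
The Gja4 window held 1 SOX match, read on the opposite strand, that begins 86 bases before the start, and the other 2 windows held none of the 3 motifs. In the genes themselves, Gja4 lies at chr4:127311421-127314039, Igfbp4 at chr11:99041244-99054392 and Tm4sf1 at chr3:57285611-57301988 (GENCODE M21, GRCm38). Of the 12 genes called higher than both venous cells and cells that were neither, 11 had a window: 0 held the RBPJ core, 3 the SOX motif and 4 the KLF motif. Among all 27025 windows of this length the shares were 21.5%, 28.3% and 27.7%. Such a match is a description of letters and not of binding.

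The list of other genes known from arterial endothelium held 35 genes, of which 32 were measured and none was used by the rule. Of these, 7 were called higher and 0 lower than in all other cells (Gja4, Alpl, Stmn2, Tm4sf1, Jag1, Ltbp4 and Sat1), beside 0.268% of all genes tested called higher. A higher mean was found in 29, beside 4621 of all 10436, and the median log2 ratio was 1.94, beside -0.13 over all genes. The list was chosen with earlier results of these data known. Against venous cells 9 were called and against neither 5 (Gja4, Tm4sf1, Jag1, Ltbp4 and Sat1). Clu, the chaperone clusterin, was among the most abundant, at 3943, 4089, 3324 and 5220.0 CPM in arterial cells, and had reads in 67 of 71 arterial cells and 20 of 209 others. In the other cells its level ranged widely, at 253, 33.3, 0.0735 and 45.5 CPM, and only the comparison with venous cells, at 0.24, 0.899, 0 and 0 CPM, passed (adjusted p = 0.0109). Cdh13, T-cadherin, had 662, 569, 717 and 728 CPM in arterial cells and 0 reads in venous cells (edgeR adjusted p = 0.00515). The ratio of the summed levels was at least 1534, a lower bound from 3 reads per venous sum. This and every later lower bound holds for reads in these sums and does not cover which cells were sampled. Cells that were neither had 60, 1.35, 115 and 119 CPM of Cdh13. Stmn2, a microtubule regulator best known from neurons, had 853, 538, 1029 and 660.5 CPM against 24.2, 81.2, 86.1 and 102 CPM (log2 fold change 3.45 ± 0.44 (SE), edgeR adjusted p = 0.0272), with reads in 59 of 71 arterial cells. It was the 1 gene of the 10 listed neuronal markers that was measured.

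**Figure D2:**
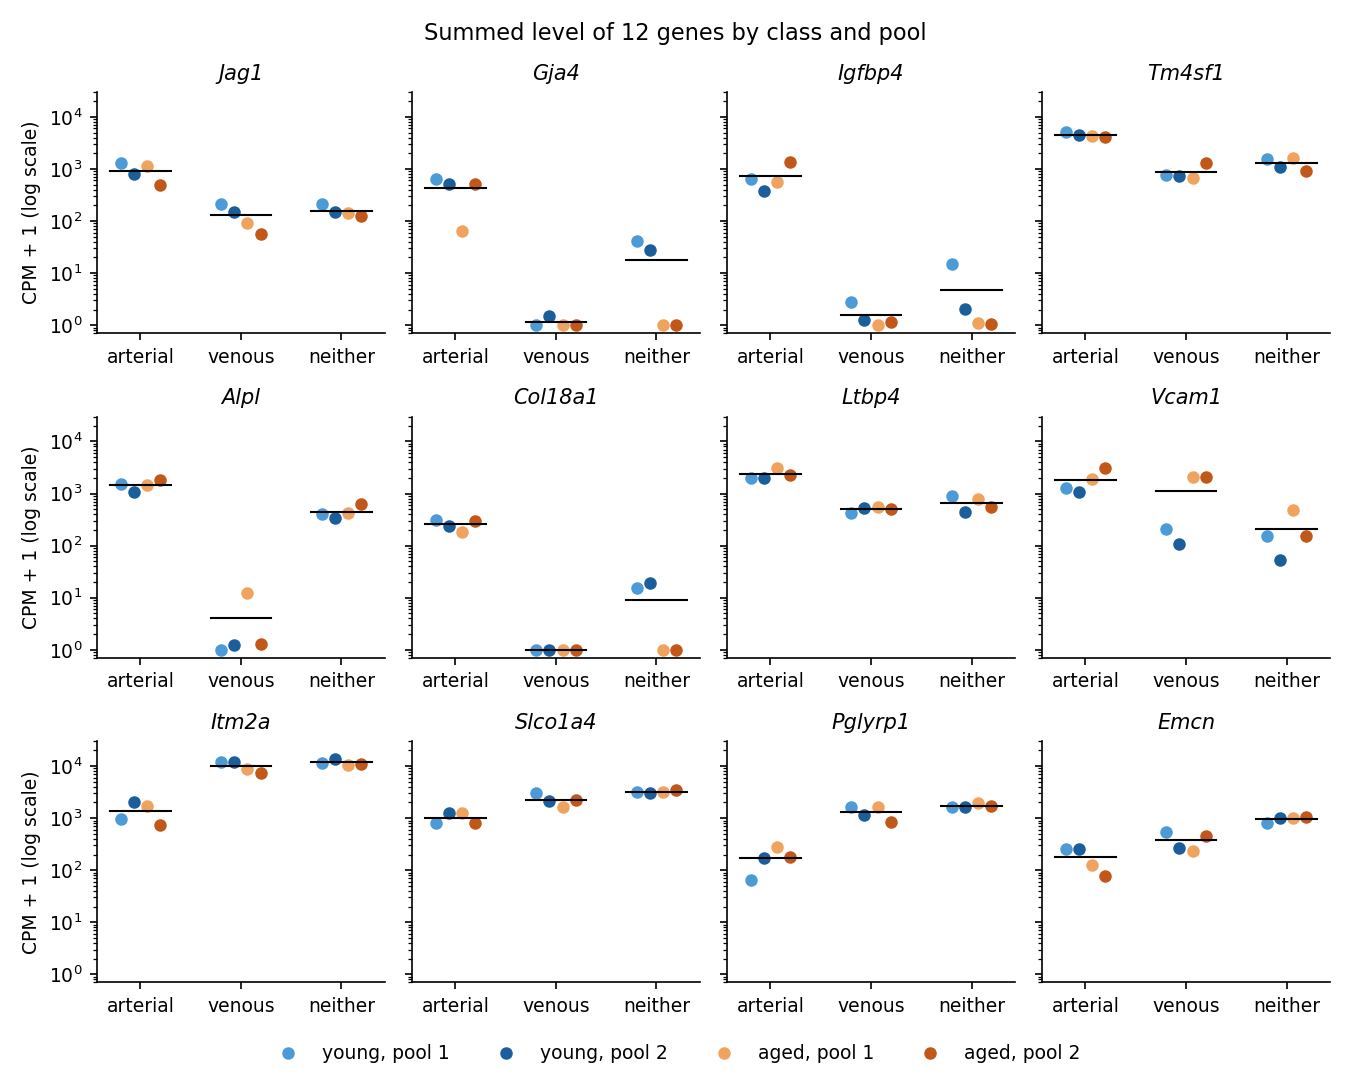
Summed level of 12 genes in arterial cells, venous cells and cells that were neither (CPM + 1, log scale). Each point is 1 pool and each black line the mean of 4 pools; Gja4, Igfbp4 and Col18a1 are near 0 outside arterial cells in several pools, every arterial pool is above 1000 CPM for Vcam1, and Itm2a and Pglyrp1 are lowest in arterial cells.

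Matrix genes were the next group, with 31 of 44 measured, 29 tested, 4 called higher (Igfbp4, Ltbp4, Col18a1 and Timp2) and 0 lower than in all other cells (median log2 ratio 0.64). Over all genes tested 0.268% were called higher, and the median log2 ratio was -0.13. Ltbp4, a latent TGF-beta binding protein that is needed for elastic fibres, is named after its values were seen. It was found in all 71 members, at 2022, 2004, 3040.4 and 2226 CPM against 749.9, 457, 722 and 545 CPM in other cells (log2 fold change 1.90 ± 0.22 (SE), edgeR adjusted p = 0.0180). Col18a1, which encodes collagen XVIII of basement membranes, had 313, 240.3, 182 and 296 CPM in arterial cells and 10.1, 13, 0 and 0 CPM in others, with reads in 33 and 3 cells (adjusted p = 0.00532). Venous cells had 0 Col18a1 reads in 4 of 4 pools, so arterial cells were at least 592-fold higher (adjusted p = 0.00486). With at least 4 rule genes the Col18a1 log2 fold change against all other cells went from 9.88 to 3.45 and the call ended (edgeR adjusted p = 0.337), while the call against venous cells held (0.0408). The 9.88 averages the 2 ages, and other cells of the aged pools had 0 reads. It therefore depends on how the fit treats 0 and is not a measured size. Timp2, an inhibitor of metalloproteinases, had 527, 330.0, 60.7 and 234 CPM against 0, 0, 43.9 and 4.56 CPM. Its aged pool 1 values, 60.7 and 43.9 CPM, were close to each other, while in the other 3 pools the classes were far apart (adjusted p = 0.0443). The Timp2 log2 fold change of 9.31 likewise rests on 0 reads in other cells of both young pools. It became 3.09 with at least 4 rule genes and 3.89 with detection at 50 CPM, without a call in either (edgeR adjusted p = 0.207 and 0.336). Lox, which cross-links elastin, had reads in 18 arterial cells and 1 other cell but was uneven over pools, at 1.03, 134, 1.86 and 151 CPM, and was not called (adjusted p = 0.209).

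In the group of vascular tone genes, 2 of 24 were called higher than in all other cells, Kcnn4 and Ptgis, beside 0.268% of all genes tested. A higher mean was found in 14, beside 4621 of all 10436, and the median log2 ratio was 0.21, beside -0.13. Ednrb, Adm and Ptgs2 of this list had a lower fitted level without a call. Kcnn4, a calcium-activated potassium channel that hyperpolarises endothelium, had 166, 86.8, 121 and 311 CPM in arterial cells, from 14 cells, and 0 reads in all 209 others (edgeR adjusted p = 0.0176). The ratio of the summed levels was at least 1377, a lower bound from 3 reads per sum that does not cover which cells were sampled. Ptgis, prostacyclin synthase, had 282, 328, 448 and 154 CPM in arterial, 112, 49.7, 73.2 and 106 CPM in venous and 9.01, 0.0501, 0 and 0 CPM in cells that were neither. It was called against all other cells and against neither (adjusted p = 0.0485 and 0.0334) and not against venous cells (adjusted p = 0.503). Gper1, a G protein-coupled oestrogen receptor that is not on this list, had 223, 247, 310.0 and 378 CPM in arterial cells and 0 reads in venous cells (at least 665-fold higher, adjusted p = 0.00110), and 46, 29.5, 115 and 48.5 CPM in cells that were neither.

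Besides Kcnn4, 4 genes called higher had 0 reads outside arterial cells. Sdc1, the heparan sulphate proteoglycan syndecan-1, had 339, 192, 256 and 105 CPM from 16 arterial cells and was at least 1795-fold higher (adjusted p = 0.0137). Fblim1, an adaptor of filamin at cell adhesions, had 193, 163, 166 and 109 CPM from 18 cells, Pcsk5, a proprotein convertase, 103, 107, 69.3 and 279 CPM from 16, and Plek2, a pleckstrin family member, 94.3, 298, 62.3 and 118 CPM from 24. The lower bounds of the differences were 1268-, 1120.3- and 1149.8-fold (adjusted p = 0.0156, 0.0272 and 0.0272). Pi16, a peptidase inhibitor, had 266, 207, 311 and 163 CPM from 14 arterial cells and 1 read in all others (adjusted p = 0.00824). For 5 of these 6 genes the call depended on where the cells with 3 rule genes are placed. With at least 4 required, the log2 fold change of Pi16 went from 14.30 to 1.41, of Pcsk5 from 14.36 to 3.76, of Plek2 from 14.33 to 5.04, of Fblim1 from 14.57 to 10.47 and of Sdc1 to 10.99. The first value of each rests on 0 or 1 read outside arterial cells, depends on how the fit treats 0 and is not a measured size. The calls of these 5 genes ended (edgeR adjusted p = 0.936, 0.515, 0.228, 0.176 and 0.161), and that of Kcnn4 held (0.0222). These 6 genes were thus found in 14 to 24 of the 71 members, in each of the 4 pools, and a summed level does not separate how many cells hold a gene from how much each holds. Of the 10 neg members, 1 had Pi16 and 1 had Plek2 at 10 CPM, and the other 4 genes reached that level in none.

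2 further genes of low level completed the largest differences. Syt15, a synaptotagmin, had 78.9, 202, 125 and 389.6 CPM against 16.8, 14.3, 0 and 0 CPM in other cells (adjusted p = 0.0179), and Cmip, a signalling adaptor, had 196, 465, 406 and 375 CPM against 22.6, 7.26, 9.48 and 8.16 CPM (adjusted p = 0.0160). In both, the lowest arterial pool stood above the highest pool of the other cells.

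Vcam1 was called higher in arterial than in all other cells. Its summed level was 1282, 1084, 1918 and 3083 CPM in arterial and 165, 66.4, 1018 and 590.2 CPM in other cells (log2 fold change 2.50 ± 0.35 (SE), edgeR adjusted p = 0.0435), with reads in 53 of 71 arterial and 44 of 209 other cells. In venous cells it was 209, 105, 2088 and 2047 CPM, and that comparison was not called (adjusted p = 0.137), while against cells that were neither, at 150.4, 52.9, 488 and 154 CPM, it was (adjusted p = 0.0180). Neither the call against all other cells nor that against neither held in the pos gate alone (edgeR adjusted p = 0.101 and 0.171; log2 fold change against all other cells 1.51), and with the pool as a block the first was lost (0.0970). Class and gate moved together, since most arterial cells were pos. Within the neg gate, 4 of 10 arterial, 1 of 2 venous and 4 of 123 remaining cells had a Vcam1 read. Within the pos gate the share of cells with a read was 8 of 12, 20 of 25, 4 of 6 and 17 of 18 in arterial cells. The mean was 76.9% ± 13.3 in arterial and 49.1% ± 18.5 in other pos cells. The difference of 27.8 points, seen in 3 of 4 pools, did not pass when values were exchanged without regard to pool (two-sided exact permutation p = 0.0857). With the classes exchanged only within pools, the exact permutation p was 0.25. In aged pool 1 both shares were 66.7%. Pooled over samples, 49 of 61 arterial, 28 of 48 venous and 11 of 36 remaining pos cells had a read. By barcode prefix, the means were 66.7% against 51.7% with prefix 1 and 87.2% against 46.6% with prefix 2. Arterial pos cells had a median of 507723 reads per cell, venous pos cells 609079.5 and remaining pos cells 518755.

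Among the genes that were lower, Car14, a membrane-bound carbonic anhydrase, had 0 reads in all 71 arterial cells. It was found in 50 of the 209 others, at 123, 86.7, 244 and 199.6 CPM, and was at least 436-fold lower in arterial cells (lower bound from 3 reads per sum; adjusted p = 0.0160). Reads of Car14 cannot be told apart from those of Aph1a, which overlaps it on the opposite strand, without knowing whether strand was used, and the same holds for each other gene here that overlaps one on the opposite strand. Among those called against all other cells these are Ccnd2, Col18a1, Fcgrt, Gper1, Htra1 (with Fgfr2), Kank3 (with the ribosomal protein gene Rps28), Pcsk5, Pi16, Pltp, Ptgis, Tspo and Vcam1, and Timp2 and Cmip overlap a gene on their own strand. Among those named only in the narrower comparisons they are Cdh13, Dcun1d3, Dll4, Eng, Cdkn1c, Gm5127, Gpr182, Junb, Nrp2 and Wnt5a. Car2, the cytosolic carbonic anhydrase, had 0, 0.194, 100.01 and 45.6 CPM in arterial and 184, 256, 254 and 126 CPM in other cells (adjusted p = 0.0299). Apod, a secreted lipocalin, had 37.9, 93.5, 0 and 0 CPM against 352, 282, 558 and 532 CPM (adjusted p = 0.00532), and Fmo1, a flavin-containing monooxygenase, had 0.0937, 0.516, 67.5 and 79.4 CPM against 196, 212, 355 and 344 CPM (adjusted p = 0.0110). Arterial cells were lower in every pool; their few reads of Car2 and Fmo1 came almost wholly from the aged pools, and those of Apod from the young ones.

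Of 16 capillary genes tested against all other cells, 2 had a higher mean in arterial cells, beside 4621 of all 10436 genes. Of the 16, 1 was called lower, beside 0.125% of all genes, and 0 higher, and the median log2 ratio was -2.66, beside -0.13. Against venous cells alone 7 of 16 had a higher mean, the median was -0.38 and again 1 was called lower; against neither these were 2 of 16, -3.00 and 1. The called gene was Itm2a, an integral membrane protein abundant in brain capillaries, at 952, 2047, 1712 and 741 CPM against 11757, 12092, 8820.0 and 7381 CPM in venous and 11651, 13938, 10382 and 10849 CPM in cells that were neither. Its log2 fold change against all other cells was -3.04 ± 0.34 (SE, edgeR adjusted p = 0.0160). Summed over the list, arterial cells had 5063 to 7511 CPM and other cells 20956 to 26307 CPM. Car4, the carbonic anhydrase of the capillary surface, had 0, 220.5, 0.233 and 0 CPM in arterial and 2251, 2061, 1565 and 1805 CPM in other cells and was not called (adjusted p = 0.178). In arterial cells 3 of 4 pools were near 0, and 1 cell gave 59.7% of all arterial reads. Slc16a1, a lactate and ketone body carrier, had 0.0937, 41.9, 0 and 35.6 CPM against 650.5, 958, 771 and 488 CPM and Kdr, the main VEGF receptor, 0.281, 12.5, 203 and 40 CPM against 309, 532, 445 and 458 CPM, and neither was called (adjusted p = 0.290 and 0.211).

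Of 29 barrier transporters tested, 1 was called lower than in all other cells, beside 0.125% of all genes, and 0 were called higher. A higher mean was found in 2, beside 4621 of all 10436 genes, and the median log2 ratio was -1.53, beside -0.13. Slco1a4, an organic anion carrier, had 806, 1235, 1269.7 and 788 CPM in arterial and 3152, 2741, 2776 and 3123 CPM in other cells (log2 fold change -1.52 ± 0.21 (SE), edgeR adjusted p = 0.0421). Against venous cells 5 were called lower (Slc3a2, Slco1a4, Slc22a8, Slc38a5 and Abcg2), beside 0.365% of all genes. Of these, Slco1a4, Slc22a8 and Abcg2 were also the 3 called lower than in cells that were neither, beside 0.211% of all genes. Slc38a5, an amino acid carrier, had 0, 121, 0.233 and 0 CPM in arterial cells, 2528, 1206, 2806 and 3427 CPM in venous and 602, 414, 631 and 528 CPM in cells that were neither, and was called against venous cells (adjusted p = 0.0259). Bsg, basigin, which escorts lactate carriers to the membrane, was abundant in arterial cells at 6220.1, 9739, 8147 and 9115 CPM but lower than the 19139, 18813, 20888 and 18620.2 CPM of other cells (log2 fold change -1.22 ± 0.15 (SE), edgeR adjusted p = 0.0203).

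Pglyrp1, a peptidoglycan recognition protein, had 62.7, 172, 280.3 and 176 CPM in arterial and 1624, 1477, 1887 and 1516 CPM in other cells (log2 fold change -3.31 ± 0.36 (SE), edgeR adjusted p = 0.0160). Fcgrt, the neonatal Fc receptor that carries immunoglobulin G, had 405, 391, 317 and 330.0 CPM against 1152, 1273, 1136 and 1269 CPM (log2 fold change -1.75 ± 0.16 (SE), edgeR adjusted p = 0.0103). Emcn, endomucin, a sialomucin known from capillaries and veins, had 256, 255, 127 and 75.7 CPM in arterial, 552, 268, 236 and 457 CPM in venous and 819, 1006, 999.9 and 1049.8 CPM in cells that were neither. It was called against all other cells and against neither (log2 fold change -2.31 ± 0.24 (SE), edgeR adjusted p = 0.0143; log2 fold change -2.58 ± 0.34 (SE), edgeR adjusted p = 0.0136) and not against venous cells (adjusted p = 0.137). Kank3, a cytoskeletal adaptor, had 353, 390.3, 393 and 329 CPM against 987, 953, 799 and 725 CPM in other cells (log2 fold change -1.23 ± 0.18 (SE), edgeR adjusted p = 0.0453), and Ccng2, cyclin G2, 88.3, 73.7, 0.233 and 0.109 CPM against 97.3, 140.0, 117 and 136 CPM (adjusted p = 0.0272).

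Set against the 50 venous cells alone, 78 of 10404 genes (0.75%) were higher and 38 (0.365%) lower in arterial cells. Of the 50 venous cells 48 came from the pos gate, and fitted on that gate alone the counts were 29 and 27; with the pool as a block they were 27 and 18. Olfml2a, an olfactomedin-like matrix protein, had 395, 189, 104 and 465 CPM in arterial cells and 0 reads in venous cells (at least 662-fold, adjusted p = 0.0233), and Atp2a3, a calcium pump of the endoplasmic reticulum, 403, 427, 252 and 482 CPM against 0 reads (at least 899-fold, adjusted p = 0.0233). Smad6, an inhibitor of BMP signals, had 208, 110.1, 73.7 and 112 CPM in arterial and 0.16, 0, 0 and 0 CPM in venous cells (adjusted p = 0.0433). On the lower side, Nrp2, a receptor of semaphorins and VEGF-C known from veins and lymphatics, and Socs3, an inhibitor of cytokine signals, had 0 reads in all 71 arterial cells. Nrp2 had 63.9, 57.2, 235 and 46.5 CPM and Socs3 33.4, 259, 192 and 171 CPM in venous cells, so arterial cells were at least 268- and 438-fold lower (adjusted p = 0.0242 and 0.00790). Mgat4a, a glycosyltransferase, was also at 0 in arterial cells, against 96.5, 111, 11.6 and 102 CPM (adjusted p = 0.0265). Gpr182 and Wnt5a each had reads in 1 arterial cell, and had 111, 220.2, 254 and 178 and 300.3, 177, 78.9 and 127 CPM in venous cells (adjusted p = 0.0173 and 0.0233). In the pos gate alone Olfml2a, Nrp2, Socs3, Mgat4a and Wnt5a lost the call against venous cells.

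Of 20 other venous genes, 4 were called lower than in venous cells (Nrp2, Slc38a5, Tmem252 and Gm5127), beside 0.365% of all genes, and 0 higher (median log2 ratio -1.68, beside 0.04 over all genes). Ackr1, the atypical chemokine receptor of venules, had 0 reads in all 71 arterial cells and 448, 0, 572 and 2300.4 CPM in venous cells; with none in young pool 2 it was not called (adjusted p = 0.110). Stress and immediate early genes, which cell isolation can induce, were also compared. Of 24, 3 were called lower than in venous cells (Junb, Ier3 and Socs3), beside the same 0.365% of all genes, and 0 higher. Against all other cells 0 were called. Ier3 had 4.96, 88, 71.6 and 96.2 CPM in arterial and 822, 832, 926 and 2116 CPM in venous cells (adjusted p = 0.0255). The part of isolation in these differences was not tested.

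Set against the 159 cells that were neither, 17 of 10404 genes (0.163%) were higher and 22 (0.211%) lower. Of the 159 cells, 36 came from the pos gate. Fitted on that gate alone the counts were 11 and 16, and only 13 of the 39 genes called on both gates were among them. The counts with the pool as a block were 7 and 14. With RLE in place of TMM scaling the split was 26 higher and 19 lower. Ndnf, a secreted neuron-derived factor, had 0.0937, 0.194, 0 and 6.74 CPM in arterial cells and 394, 214, 167 and 241 CPM in these cells (adjusted p = 0.0244), and Ttyh2, an anion channel, 0, 5.29, 0 and 0 CPM against 268, 281, 194 and 175 CPM (adjusted p = 0.0424). Dcun1d3, a neddylation factor, had 0.281, 0.71, 0 and 0.435 CPM against 78.4, 33.9, 35.9 and 89 CPM (adjusted p = 0.0441). In these 3 genes every arterial pool was under 10 CPM. In the pos gate alone Ndnf and Dcun1d3 lost the call (edgeR adjusted p = 0.314 for Ndnf), and the log2 fold change of Dcun1d3 went from -7.35 to -1.56. In both narrower comparisons, 12 genes were higher (Col18a1, Ehd4, Emp1, Gja4, Igfbp4, Jag1, Kcnn4, Ltbp4, Pi16, Sdc1, Tm4sf1 and Tspo) and 18 lower, among them Car14, Itm2a, Pglyrp1, Fcgrt, Slco1a4 and Socs3. Fitted on the pos gate alone, Gja4, Igfbp4, Kcnn4, Pi16, Sdc1 and Socs3 lost the call against neither, as did Ptgis (edgeR adjusted p 0.0508 to 0.267). The 2 comparisons share their arterial sums.

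The members varied among themselves. Of the 32 measured arterial genes that the rule did not use, a member held a median of 18 at 10 CPM (10 to 26), against 10 (2 to 24) in other pos and 9 (2 to 17) in other neg cells. Medians by the number of rule genes were 17.5, 19, 19 and 17 for 3, 4, 5 and 6, so that the groups overlapped. Medians of capillary genes were 4.5, 4, 3 and 2 of 17 for the same 4 groups, and all 10 neg members are in the groups with 3 and 4 rule genes. The 10 neg members held a median of 17 of the arterial genes, close to the 18 of the 61 pos members, but 8 capillary genes against 3 and 13.5 of 30 barrier transporters against 7. Other neg cells had medians of 10 and 16 for those 2 lists. These groups hold cells of the same pools, and their differences are a description.

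At the level of single genes, the 28 genes called higher were found at 10 CPM in a median of 16 per pos member and 10.5 per neg member, against 5 in other cells of either gate. These genes were called on the same members, most of them from the pos gate. Both orders are therefore favoured by the choice of genes, describe the calls and add no support to them. Alpl was held by 8 of 10 neg and 45 of 61 pos members, whereas Ccnd2, cyclin D2, was held by 3 of 10 and 52 of 61. Emcn was held by 7 of 10 neg and 8 of 61 pos members. Outside the members, 4 of 209 cells held at least 18 of the arterial genes, all from the pos gate of young mice: 2 of them had no rule gene of either kind, with 3202 and 3703 detected genes, 1 had 2 arterial rule genes, and 1 was the cell with 3 of each kind.

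**Figure D3:**
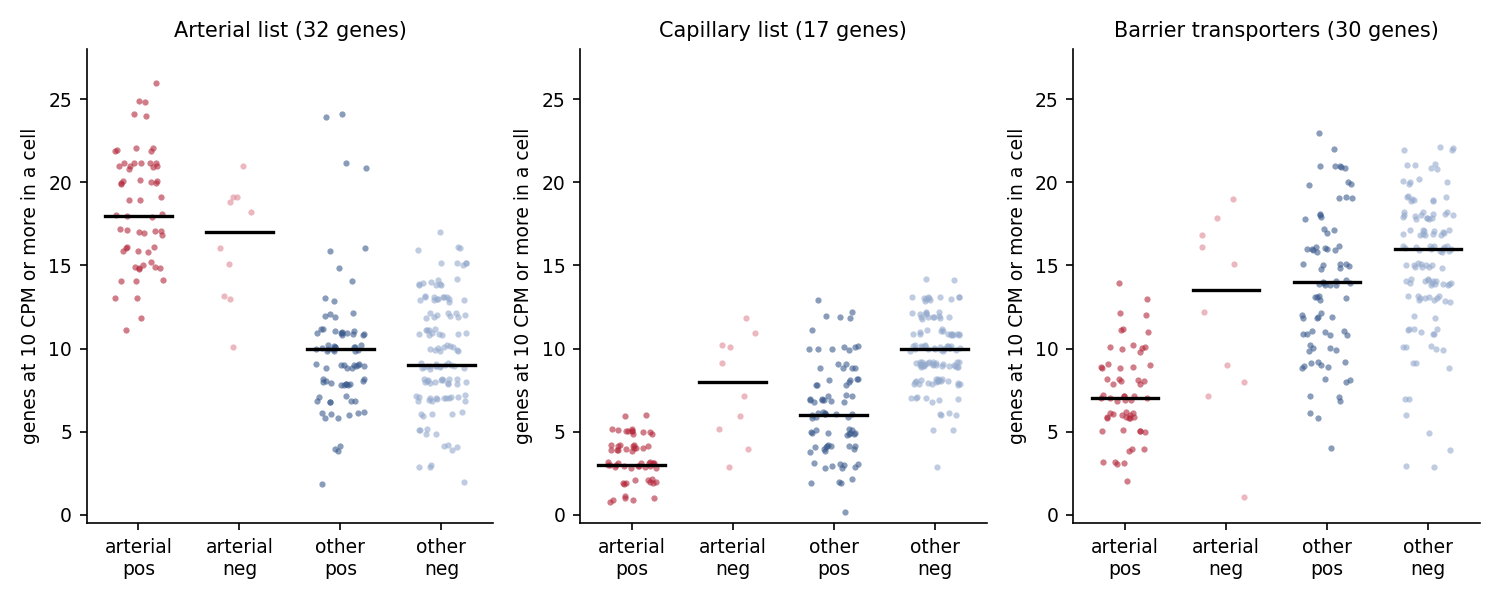
Number of genes at 10 CPM or more in each cell, for 3 gene lists that the rule did not use, in arterial and other cells of the 2 gates. Each point is a cell, moved slightly at random to separate points, and black lines are medians; arterial cells of the pos gate stand highest in the arterial list (18 of 32) and lowest in the capillary list (3 of 17), and the 10 arterial cells of the neg gate hold 17 and 8.

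Lists of other functions showed few calls against all other cells. None of 18 class I antigen presentation genes was called against all other cells. A higher mean was found in 15, beside 4621 of all 10436 genes (median log2 ratio 0.48, beside -0.13). H2-Q6 had 236, 173, 206 and 623 CPM against 74.3, 20.4, 161 and 272 CPM and overlaps with near-identical family members, so its reads are uncertain. Of 18 adhesion and inflammation genes 1 was called higher, Vcam1, beside 0.268% of all genes. TGF-beta and BMP genes (0 of 19), guidance genes (0 of 20), VEGF and angiopoietin genes (0 of 10), junction genes (0 of 16) and haemostasis genes (0 of 10) had none in that comparison. Against venous cells, Eng, Smad6 and Cdkn1c of the TGF-beta and BMP list and Cdh13 of the junction list were called higher and Nrp2 of the guidance list lower. In the VEGF and angiopoietin list 1 of 10 genes had a higher mean than in all other cells, and the median log2 ratio was -0.55. Vegfc, a growth factor of the VEGF family, was the gene with the higher mean. It had 268, 210.3, 119 and 298 CPM against 6.61, 16.3, 16 and 87.8 CPM (adjusted p = 0.178). Thbd, thrombomodulin, had 185, 337, 489 and 445 CPM against 896, 765, 774 and 653 CPM (adjusted p = 0.164).

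**Figure D4:**
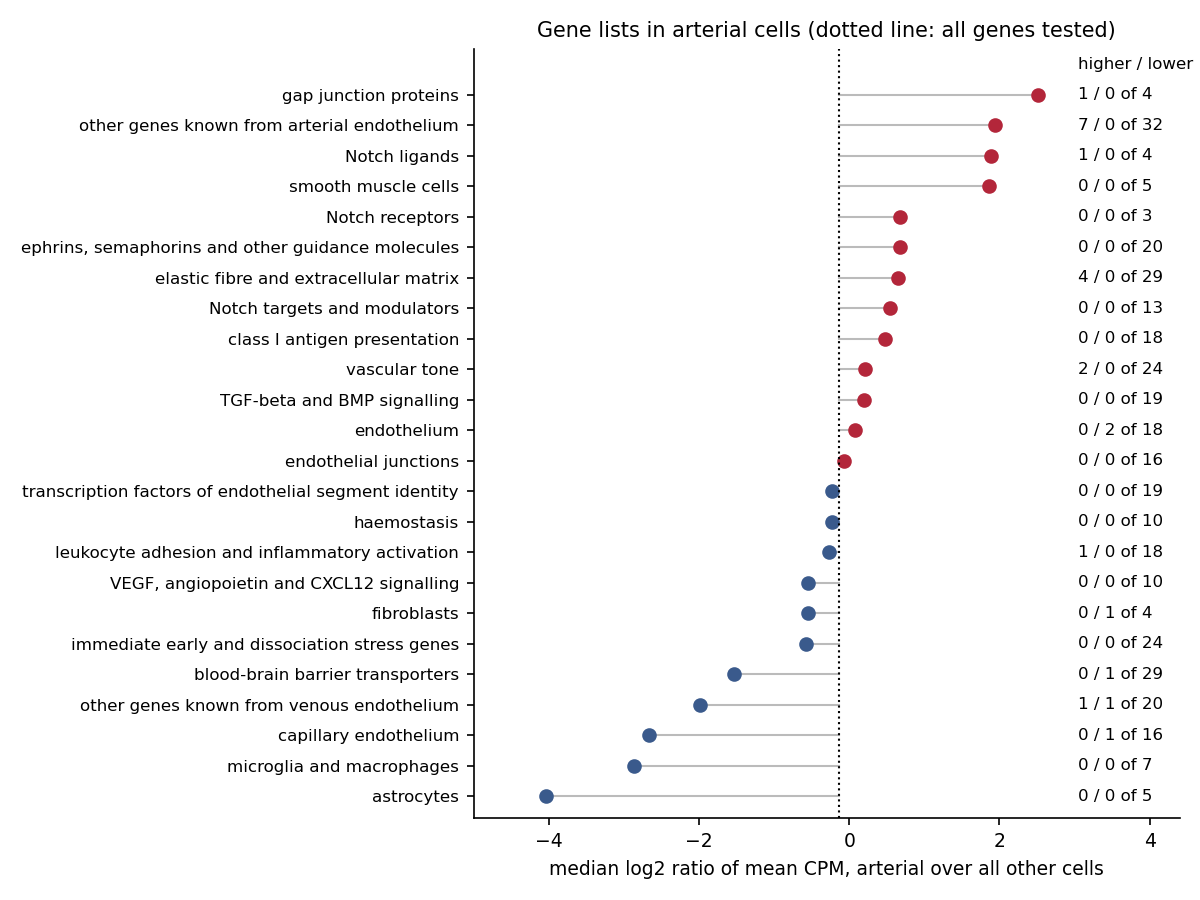
Median log2 ratio of mean CPM, arterial over all other cells, for each list with at least 3 genes tested; the dotted line is the median over all genes (-0.13). Numbers at the right are genes called higher and lower of those tested. The 4 lists at the top are gap junction proteins (2.52, with a higher mean in 2 of 4 genes), other arterial genes (1.94), Notch ligands (1.89) and smooth muscle (1.87). The capillary list has -2.66.

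Markers of other cell types were measured beside these groups. The smooth muscle list had 6 of 14 genes measured, of which 2, Crip1 and Sncg, are also on the arterial list. Summed, it gave 849 to 1044 CPM in arterial and 507 to 771 CPM in other cells. Of 5 tested genes 4 had a higher mean in arterial cells, beside 4621 of all 10436 genes, the median log2 ratio was 1.87 and 0 were called. Acta2, smooth muscle actin, had reads in 9 arterial and 5 other cells, at 0, 81.9, 0 and 0 CPM and 0.0893, 0, 0 and 0.0346 CPM, and Mylk, myosin light chain kinase, in 45 and 16, at 112, 213, 26.7 and 274 CPM and 24.1, 16.8, 22 and 7.67 CPM (adjusted p = 0.224). Of 11 fibroblast markers 4 were measured, which summed to 5.12 to 221 CPM in arterial and 282 to 588 CPM in other cells. Of these, Apod was called lower, as given above, and 0 were called higher (median log2 ratio -0.55), and Col3a1 was found in 6 arterial cells and 1 other cell. Of 11 pericyte markers 2 were measured, with reads in 1 arterial cell each, and Rgs5 was found in 17 other cells. Microglia markers summed to 122 to 287 CPM in arterial and 62.6 to 105 CPM in other cells, with 11 of 14 measured. Of the 7 tested, however, 1 had a higher mean in arterial cells, the median log2 ratio was -2.87 and 0 were called. The part of such RNA in the arterial differences was not tested.

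For age, 0 of 10436 genes (0%) were called between aged and young arterial cells by edgeR, 2 pools against 2, with 748 genes at an unadjusted p under 0.05. Also 0 (0%) were called for a difference of the age effect between arterial and other cells, with 586 at that unadjusted level. DESeq2, on the same sums, called 1108 and 895. Of the genes nearest to the threshold, Apod and Fmo1 were held by few cells. Apod had 37.9, 93.5, 0 and 0 CPM in arterial cells, from 9 cells, so that both young pools had reads and both aged pools had none (edgeR adjusted p = 0.132), while in other cells it was 352, 282, 558 and 532 CPM (edgeR adjusted p = 0.204 for the difference between the age effects). Fmo1 had 0.0937, 0.516, 67.5 and 79.4 CPM from 6 cells, with the aged pools above the young ones (edgeR adjusted p = 0.148). Vcam1 was higher in both aged than in both young arterial pools without passing the test (log2 difference 1.08 ± 0.48, SE; edgeR adjusted p = 0.622), and the age effects of arterial and other cells were not shown to differ (edgeR adjusted p = 0.831). Arterial cells were 40.3% of pos cells over pools, with 28.6% and 55.6% in the young and 28.6% and 48.6% in the aged pools, so the pools of 1 age differed by more than the means of the ages did.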

How the data were processed

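The authors deposited a table of raw read counts with 11463 genes and 316 cells, each gene read in at least 5 cells; that they are counts follows from whole numbers and unequal totals. The submitters' processing notes name Bowtie 0.12.2, mm10 and GRCm38 without their roles; how reads were counted, with which annotation, strand setting or filters, is not given in the sources used here. Each pool joined hippocampi of 4 mice, from which endothelial cells were sorted by flow cytometry, per the labels' protocols.

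The 280 cells with 1000 or more genes were classed by the rule above, and no doublet caller was run. Counts were summed per pool and class (8 sums for 2 classes, 12 for 3) and tested by quasi-likelihood in edgeR 4.0.16 (R 4.3.3), after filterByExpr and TMM scaling, with 1 coefficient per age and class and a Benjamini-Hochberg adjusted p under 0.05. CPM of sums use effective library sizes. Ratios are of mean CPM over pools, with a class at 0 set to 3 reads per sum. Log2 fold changes are the mean of the fitted differences of the 2 ages. Where a class had 0 reads in an age, their size depends on how the fit treats 0. Other fits used DESeq2 1.42.0, limma 3.58.1, cells thinned to 100000 reads, stricter rules and 1 pool left out. Cells of 1 pool come from the same mice, which pairs the sums, although deviations of the 2 classes of a pool correlated at only 0.03 (young) and 0.01 (aged). Intervals and lower bounds cover counting error only, and not the spread between cells or pools. Of the table's symbols, 11224 matched GENCODE M21 (GRCm38).

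The arterial cells, the gene lists and the tests were chosen with earlier results of these data known. Genes named were the 12 with the largest change in each direction among those called against all other cells, with at least 32 CPM in the higher class and the same sign in all pools, 6 for each other class, 3 for age, Vcam1 and up to 4 per list; other genes were named after their values were seen.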

Additional observations from a re-analysis of the deposited data

Results flagged for a closer look

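Over the 4 pools of a class, 5 of 81 sets of values held a pool that stood far from the other 3 by Dixon's test at 95%, which chance alone does in about 1 set in 20. Sat1 (spermidine acetyltransferase) in arterial cells was 2183 CPM in young pool 1, against 1269, 1284 and 1297 CPM in the other pools. In all other cells, Igfbp4 was 10.2 CPM in young pool 1 against 0.815 CPM or less, and Cmip was 22.6 CPM in young pool 1 against 7.26 to 9.48 CPM. In the same cells, Timp2 was 43.9 CPM in aged pool 1 against 0, 0 and 4.56 CPM, and Tspo, the mitochondrial translocator protein, was 518 CPM in aged pool 1 against 334.7 to 356 CPM. The cause was not tested.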

How the results depend on the processing

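All 41 genes called against all other cells kept their direction in every alternative fit that was run. The count of 41 became 5 with the pool as a block, 27 with at least 4 rule genes, 71 with thinned cells, 81 with detection at 50 CPM, 112 with limma on mean CPM per cell, 1489 with DESeq2, and 0 to 0 without any 1 pool. Against venous cells, 116 calls became 45 with the pool as a block, 56 in the pos gate alone, 236 with limma, 1978 with DESeq2, and 10 to 98 with 1 pool left out. Against cells that were neither, 39 became 21 with the block, 22 with at least 4 rule genes, 76 thinned, 82 at 50 CPM, 118 with limma, 1231 with DESeq2, and 4 to 11 with 1 pool left out. For age within arterial cells, 0 became 3 at 50 CPM, 1 in the pos gate alone and 1108 with DESeq2, and for the difference of age effects 0 became 1 with at least 4 rule genes and 895 with DESeq2; the block and each left-out pool gave 0 in both. The gate difference of 33.4 points had a paired p of 0.125, the smallest that 4 pairs can give, and 30.2 to 36.5 points with 1 pool left out (exact permutation p = 0.1, the smallest for 3 against 3). Detected genes per pos cell, 66.4 higher in arterial cells, ranged from -66.6 (without aged pool 1) to 150.4 with 1 pool left out. With Vcam1 counted at 10 CPM, an alternative chosen after seeing the data, the difference in pos cells was 25.7 points (exact permutation p = 0.171). Fits without 1 pool have fewer samples; for the other changes the cause was not tested. RLE scaling moved the median log2 difference by at most 0.10. Arterial sums of 3940046 reads from 7 cells in aged pool 1 limit what can be seen there.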
